A study of Mus musculus with 20 samples.

Results

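Glutathione transferases are the enzymes that attach glutathione to reactive molecules so that these can be exported and excreted. The cytosolic enzymes fall into classes named by letter, among them alpha (Gsta genes), mu (Gstm), pi (Gstp) and theta (Gstt), while the kappa enzyme (Gstk1) sits in mitochondria and peroxisomes and the microsomal Mgst1 is built into membranes. The proximal tubule of the kidney is known for high levels of these enzymes and for the later steps that turn glutathione conjugates into mercapturates, and platinum compounds are among the substrates that cells can conjugate to glutathione. The genes described here are 10 members of this family (Gsta2, Gsta3, Gsta4, Gstm1, Gstm2, Gstm5, Gstp1, Gstt1, Gstk1 and Mgst1), taken by gene symbol from the 55486 genes counted in both tissues, and all 10 were found.

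RNA was sequenced from whole kidney and whole bone marrow of C57BL/6 mice, 10 weeks old at the start, that had received 10 mg/kg oxaliplatin, a platinum chemotherapy drug, in 5% dextrose by intraperitoneal injection over 8 weeks, or 5% dextrose alone (vehicle). Each of the 4 groups (kidney vehicle, kidney oxaliplatin, bone marrow vehicle, bone marrow oxaliplatin) held 5 libraries, numbered 1 to 5, and marrow of the hind leg long bones (femur, tibia) was collected 6 days after dosing ended. The mice carried no engineered allele according to the labels, which give no sex, although the methods name mice of both sexes. Reads of 4 Y-linked genes were present in all 20 libraries (396 to 2460 counts per gene), while Xist, the transcript that silences an X chromosome in females, had 0 to 100 counts.

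Total counts per library ranged from 24393007 to 30925430 in kidney and from 30660153 to 41140527 in marrow, and 3 counts, taken as the lowest level that can be told from none, corresponded to at most 0.130 CPM (counts per 1e6 of the scaled library size); this limit covers counting error only. The tissue labels fitted their markers: Slc34a1, the phosphate transporter of the proximal tubule, had 5924 to 8747 CPM in the kidney libraries and at most 0.634 CPM in marrow, and Hbb-bs, a beta globin, had 763 to 14431 CPM in marrow and 10.4 to 199 CPM in kidney. CPM were scaled within each tissue by the TMM method, and the groups were compared gene by gene by the quasi-likelihood test of edgeR (two-sided), with Benjamini-Hochberg adjustment over all genes tested. A gene was called changed when its adjusted p was under 0.05 and its fold change over 1.5. In bulk tissue, fewer cells of a type and less RNA per cell cannot be told apart, and p values measure the spread between these 5 libraries per group.

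The promoters of the genes with the clearest changes are shown here because the calls fell mostly on different members in kidney and marrow. RefSeq promoter windows (GRCm38.p6, 250 bases before to 50 after the start) were at hand for 9 of the 10 genes, all but Gsta4, and the 250 bases before the start are printed 5′ to 3′ for Gsta2 and Gsta3, which rose in kidney, and for Gstm2 and Gstt1, which rose most in marrow. Capitals mark matches to the motifs searched. The windows of Gsta2 and Gstt1 lie inside the annotated spans of these minus-strand genes, which reach 78355788 and 75798584. They therefore do not show the bases before the outermost annotated start.
Gsta2, chr9:78347146-78347395, minus strand: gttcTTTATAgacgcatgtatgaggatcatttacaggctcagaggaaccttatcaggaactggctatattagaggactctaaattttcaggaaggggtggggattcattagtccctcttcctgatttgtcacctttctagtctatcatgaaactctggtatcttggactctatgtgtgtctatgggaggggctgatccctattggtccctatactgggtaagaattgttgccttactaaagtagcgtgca
Gsta3, chr1:21240335-21240584, plus strand: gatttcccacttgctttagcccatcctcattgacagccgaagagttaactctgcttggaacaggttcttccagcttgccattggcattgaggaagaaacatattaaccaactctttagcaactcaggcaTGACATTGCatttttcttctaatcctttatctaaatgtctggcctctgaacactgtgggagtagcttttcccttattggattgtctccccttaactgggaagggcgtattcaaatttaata
Gstm2, chr3:107986421-107986670, minus strand: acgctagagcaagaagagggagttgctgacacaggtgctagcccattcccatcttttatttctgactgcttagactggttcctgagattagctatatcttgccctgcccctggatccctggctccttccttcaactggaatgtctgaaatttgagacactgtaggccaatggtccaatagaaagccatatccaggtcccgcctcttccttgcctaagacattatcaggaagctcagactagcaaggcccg
Gstt1, chr10:75797732-75797981, minus strand: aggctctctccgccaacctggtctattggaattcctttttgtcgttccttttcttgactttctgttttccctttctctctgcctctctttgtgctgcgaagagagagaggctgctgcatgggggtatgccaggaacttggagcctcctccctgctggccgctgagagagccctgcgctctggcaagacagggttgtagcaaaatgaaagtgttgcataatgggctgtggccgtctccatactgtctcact
Both strands of each whole window were searched for the core of the antioxidant response element (TGACNNNGC), to which NRF2 binds, and for the TATA box (TATAAA). The antioxidant core was present in 12.4% of 32851 promoter windows of all genes and in 3 of the 11 windows of the 9 member genes (Gstm1 and Mgst1 have 2 each), those of Gsta3 (TGACATTGC, first base 121 before the start), Gstm5 (TGACCACGC) and Mgst1 (GCACGGTCA, on the minus strand of the window). The TATA box was present in 13.6% of all windows and in 3 of the 11, those of Gsta2, Gstm1 and Gstm5, the last of these after its start. The match of Gsta2 (TTTATA) lay on the minus strand of the window, first base 246 before the start, and that of Gstm1 30 before. The windows of Gstm2 and Gstt1 held no match to either motif. A match describes letters only, and binding was not measured.

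Without treatment, 9 of the 10 genes were higher in kidney than in marrow (adjusted p under 0.05 and over 1.5-fold in a fit of all 20 libraries), in a comparison in which 72.9% of 24321 genes were called in either direction, 34.6% higher and 38.3% lower in kidney. All 10 had an adjusted p under 0.05, beside 80.7% of all genes. The tissues were extracted with different protocols, so tissue and extraction cannot be told apart. The alpha genes Gsta2 and Gsta3 lay furthest apart between the tissues. Gsta2, whose enzyme conjugates glutathione and also reduces organic peroxides, had a log2 difference of 9.28 ± 0.446 (SE, edgeR adjusted p = 3.32e-14), and Gsta3, an alpha enzyme known in mouse liver for conjugating aflatoxin epoxide, one of 7.52 ± 0.239 (edgeR adjusted p = 2.32e-18). Mgst1 was the exception, at 54.4 ± 5.26 CPM in vehicle marrow and 41.5 ± 3.00 CPM in vehicle kidney (SD, n = 5 each, both scaled over the 20 libraries). Its log2 difference of -0.39 ± 0.138 (edgeR adjusted p = 0.0128) passed the test but not 1.5-fold, and its 5 kidney libraries all lay under its 5 marrow libraries, while the other 9 genes were higher in kidney without overlap. Of all genes, 72.9% did not overlap (35.8% higher and 37.1% lower in kidney).

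Per length of exon, the levels of the 10 genes could be ranked within a tissue. Gstm1, a mu class enzyme that is abundant in many mouse tissues, stood first in vehicle kidney at 356 ± 23.6 CPM per kilobase and first in vehicle marrow at 66.7 ± 5.24 CPM per kilobase (SD, n = 5). In vehicle kidney Gstt1 followed at 99.0 ± 7.04 CPM per kilobase, then Gstm5 at 79.1 ± 5.99 and Gstp1 at 77.9 ± 7.63, whose ranges overlapped, then Gsta2 at 54.1 ± 9.60 and Gstk1 at 37.5 ± 2.53, which also overlapped. Gstm2 (28.0 ± 1.89), Gsta4 (20.9 ± 2.49), Mgst1 (20.6 ± 1.49) and Gsta3 (17.4 ± 1.10 CPM per kilobase) closed the order, with Gsta4 overlapping both Mgst1 and Gsta3. The last place of Gsta3 depends on its length, as all its annotated exons span 4344 bases, against 1177 to 2013 for the other members. In CPM scaled within kidney, vehicle Gsta3 (65.6 ± 4.17) had a higher mean than Gsta2 (55.4 ± 9.65). Exon windows shared with other genes may also lower the levels of Gsta2, Gstp1 and Gstm1. The order differed in vehicle marrow, where Mgst1 came second at 27.0 ± 2.61 CPM per kilobase. It was followed there by Gstp1 (15.1 ± 1.21) and Gstm5 (13.8 ± 2.65 CPM per kilobase), which overlapped, and by Gstt1 at 4.15 ± 0.804 CPM per kilobase. The other 5 genes lay between 0.0827 and 1.67 CPM per kilobase in vehicle marrow, with Gsta2 and Gsta3 at the bottom. Summed over the 10 genes, the level was 790 ± 34.8 CPM per kilobase in vehicle kidney and 131 ± 10.2 in vehicle marrow (SD, n = 5).

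**Figure D1:**
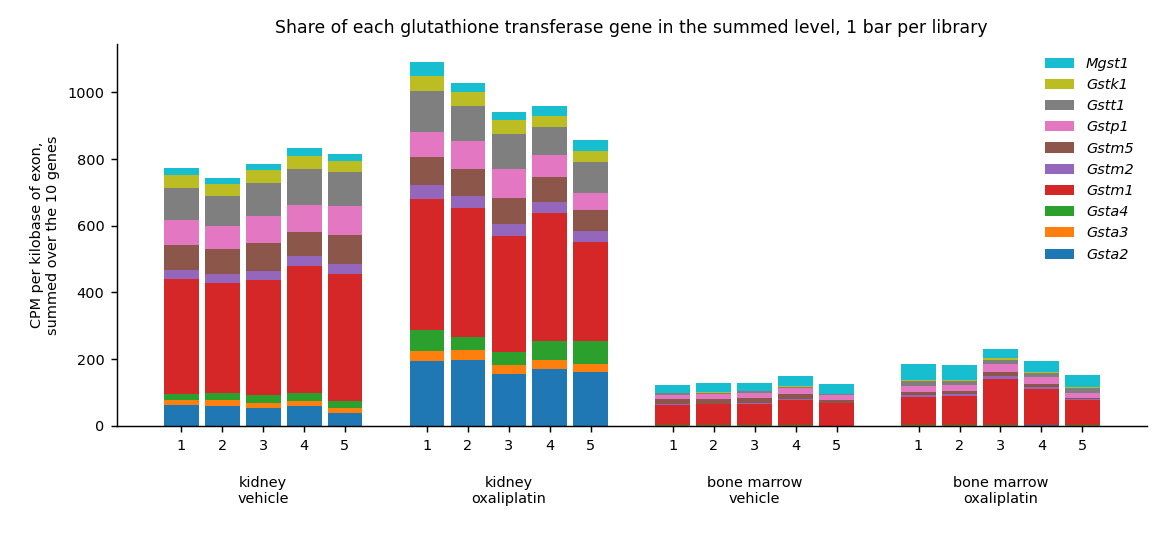
Level of the 10 genes in each library in CPM per kilobase of exon, stacked by gene, with libraries 1 to 5 of each group side by side. Gstm1 was the largest block in every group, and the block of Gsta2 grew from 6.88% of the kidney sum with vehicle to 18.1% with oxaliplatin.

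In kidney, oxaliplatin was accompanied by higher RNA of the 3 alpha genes, and 0 of the 10 genes were called lower by edgeR or by DESeq2, or had an unadjusted p under 0.05 and a lower level. Gsta2, Gsta3 and Gsta4 were called higher, 3 of the 10 tested, beside 11.5% of 19293 kidney genes called in either direction and 7.68% called higher. Gstm2 and Mgst1 also passed the adjusted p but not 1.5-fold, so that 5 of 10 had an adjusted p under 0.05 beside 29.4% of all genes. The median log2 fold change of the 10 was 0.205, beside 0.025 for all genes tested.

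Gsta2 had 62.6, 61.3, 53.8, 59.9 and 39.2 CPM in vehicle kidneys 1 to 5 and 199, 198, 161, 177 and 168 CPM in oxaliplatin kidneys 1 to 5. Every treated library exceeded every vehicle library by a wide margin, and no single library carried the difference. The means were 55.4 ± 9.65 and 181 ± 17.3 CPM (SD, n = 5 each), a log2 fold change of 1.71 ± 0.113 (SE, edgeR adjusted p = 1.41e-07). Gsta2 lies on the minus strand of chr9:78331018-78355788 (GRCm38), and 49.8% of the 50-base windows of its exons also occur in other genes, chiefly its near copy Gsta1, so reads of this gene may have been lost or divided when the authors counted unambiguous reads only.

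Gsta4, the alpha enzyme that prefers 4-hydroxynonenal, a product of lipid peroxidation, lies on the plus strand of the same chromosome (chr9:78182774-78209349) and shared no exon window with another gene. Its vehicle kidneys had 18.7, 23.0, 25.4, 25.7 and 22.4 CPM and its oxaliplatin kidneys 70.9, 42.0, 42.1, 64.2 and 78.7 CPM. The groups did not overlap, and the treated libraries spread widely, with 2 and 3 at the low end and 1 and 5 at the high end. Means of 23.0 ± 2.82 and 59.6 ± 16.8 CPM gave a log2 fold change of 1.37 ± 0.191 (edgeR adjusted p = 4.95e-04).

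Gsta3 (chr1:21240589-21265661, plus strand) rose less but evenly. It had 64.5, 72.1, 63.8, 66.5 and 60.9 CPM with vehicle and 111, 109, 103, 102 and 87.7 CPM with oxaliplatin, again without overlap. The log2 fold change was 0.65 ± 0.0726 (95% interval 0.493 to 0.799, edgeR adjusted p = 1.02e-05), and since that interval includes 1.5-fold, the gene was no longer called in a test against 1.5-fold (adjusted p = 0.827).

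The mu gene Gstm2 and the microsomal Mgst1, a membrane enzyme with both transferase and peroxidase activity, moved by smaller amounts in kidney. Gstm2 went from 40.9 ± 2.87 to 52.6 ± 6.05 CPM (log2 fold change 0.37 ± 0.0807, edgeR adjusted p = 0.00266), and the treated libraries (47.1 to 62.3 CPM) all lay above the vehicle libraries (37.8 to 44.3 CPM). Mgst1 had 33.9, 36.3, 33.3, 40.2 and 36.7 CPM with vehicle and 75.0, 45.0, 43.1, 48.4 and 56.0 CPM with oxaliplatin, also without overlap. Its log2 fold change of 0.57 ± 0.132 (edgeR adjusted p = 0.00568) was just under 1.5-fold, and it passed 1.5-fold when vehicle library 4 or treated library 2, 3 or 4 was left out (0.611 to 0.638). In 5 of the 10 genes all treated libraries stood above all vehicle libraries, and in 0 below, while of all genes tested in kidney 20.7% did not overlap (9.69% higher and 11.0% lower).

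Among the other 5 genes, Gstm1 (456 ± 31.6 and 463 ± 48.1 CPM), Gstt1 (132 ± 9.61 and 136 ± 19.9 CPM) and Gstk1 (47.8 ± 2.99 and 49.4 ± 5.71 CPM) had almost the same means in both groups, as did Gstm5 (87.9 ± 6.88 and 84.9 ± 8.89 CPM) and Gstp1 (105 ± 10.6 and 98.7 ± 18.2 CPM). Their edgeR adjusted p values ran from 0.602 to 0.860. The 95% interval of the log2 fold change was -0.146 to 0.191 for Gstm1 and -0.335 to 0.159 for Gstp1, the pi class enzyme often studied in drug resistance, which bounds a difference for either gene well under 1.5-fold. Counting was less certain for Gstp1, with 33.7% of its exon windows shared with other genes, and for Gstm1, with 18.9%.

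**Figure D2:**
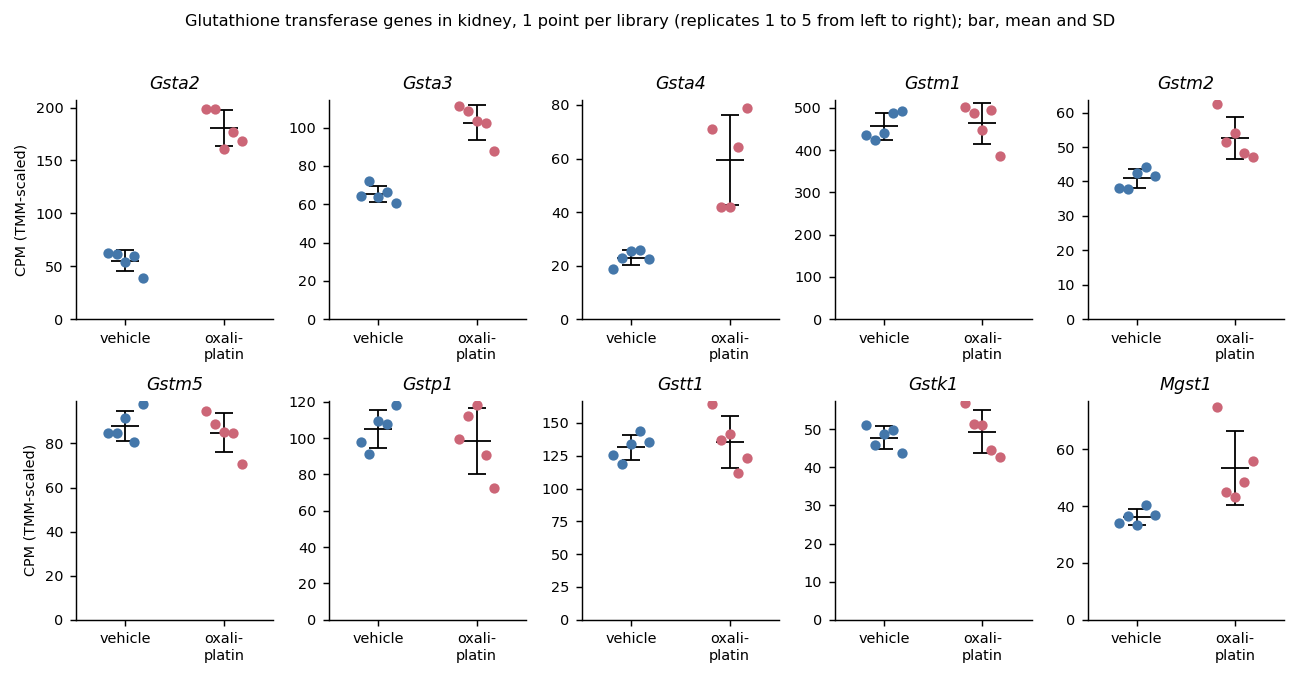
CPM of each gene in the kidney libraries (vertical axes start at 0; points, libraries 1 to 5 from left to right; bars, mean and SD). The treated libraries lie above all vehicle libraries for Gsta2, Gsta3, Gsta4, Gstm2 and Mgst1 and overlap them for the other 5 genes.

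Markers of kidney cell types moved in the same libraries. The summed level of 10 proximal tubule markers was 30455 to 36373 CPM with vehicle and 18282 to 24949 CPM with oxaliplatin, and 4 of the 10 were called lower (Kap, Slc7a13, Slc22a6 and Slc27a2). The list did not move as one: Kap, an abundant gene of the list, went from between 7258 and 8998 CPM to between 362 and 3509 CPM, whereas Lrp2, Cubn, Slc5a2, Slc22a8 and Aqp1 had log2 fold changes of -0.042 to 0.319, with Cubn past the adjusted p (0.00802) but not 1.5-fold. The lowest sums were those of treated kidneys 1 (18410 CPM) and 5 (18282 CPM), the same libraries in which Gsta4 and Mgst1 were highest. Gsta2 and Gsta3 did not follow this order. Treated kidney 1 had the most of both (199 and 111 CPM), whereas treated kidney 5 had the least Gsta3 (87.7 CPM) and 168 CPM of Gsta2. All 4 podocyte markers were called higher, with sums of 127 to 134 CPM and 210 to 250 CPM, as were 2 of 5 endothelial markers (335 to 347 and 406 to 556 CPM) and 4 of 6 tested markers of stroma and bone (246 to 281 and 308 to 437 CPM). Of 6 macrophage markers tested, 4 were lower and 1 higher (40.8 to 50.5 and 22.9 to 33.8 CPM). Of the adipocyte markers, 6 of 8 tested were called higher, from 0.0864 to 1.57 CPM up to 1.58 to 6.28 CPM for Adipoq and from 16.9 to 27.5 CPM up to 38.3 to 94.8 CPM for Fabp4, and the summed list (2598 to 3317 and 2042 to 3550 CPM) was mostly Pck1, which tubule cells also make. The part of these shifts in the transferase values was not tested.

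In marrow, Gstt1, Gstm2, Gstk1 and Gsta3 were called higher and Gstm5 lower, 5 of the 9 genes tested, beside 23.3% of 22363 marrow genes called in either direction (11.6% higher and 11.8% lower). An adjusted p under 0.05 was reached by 7 of the 9, beside 33.1% of all genes, and the median log2 fold change of the 9 was 0.505, beside -0.038 for all genes tested. Only Gstt1 and Gstm2 had groups that did not overlap, both higher, beside 24.9% of all genes without overlap (11.4% higher and 13.5% lower).

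Gstt1, the theta class enzyme that acts on small halogenated compounds, lies on the minus strand of chr10:75783813-75798584 and shared no exon window with another gene. Vehicle marrows 1 to 5 had 8.77, 7.54, 7.31, 8.55 and 5.00 CPM and oxaliplatin marrows 1 to 5 had 30.2, 18.4, 19.1, 21.8 and 25.1 CPM. The lowest treated library held over 2 times the highest vehicle library. The means of 7.43 ± 1.5 and 22.9 ± 4.85 CPM gave a log2 fold change of 1.62 ± 0.178 (edgeR adjusted p = 1.71e-05).

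Gstm2 (chr3:107981702-107986453, minus strand) is a mu class enzyme encoded within the Gstm cluster of chromosome 3, and 5.65% of its exon windows were shared. It had 2.72, 3.08, 3.81, 4.02 and 2.79 CPM with vehicle and 11.8, 10.9, 12.0, 11.6 and 5.96 CPM with oxaliplatin. Treated library 5 stood well below the other 4, yet above every vehicle library. The log2 fold change was 1.67 ± 0.210 (edgeR adjusted p = 5.3e-05), and 1.60 to 1.85 when any 1 library was left out.

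Gstk1, the kappa enzyme (chr6:42245935-42250447, plus strand), had 1.58, 2.71, 2.27, 3.19 and 1.69 CPM with vehicle and 5.99, 4.83, 6.08, 5.10 and 2.67 CPM with oxaliplatin. Treated library 5 fell inside the vehicle range and the other 4 lay above it. The log2 fold change was 1.11 ± 0.267 (edgeR adjusted p = 0.00614), and in the test against 1.5-fold it was not called (adjusted p = 0.0758).

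The calls for Gsta3 and Gstm5 were weaker. Gsta3 had 12 to 22 counts (0.349 to 0.693 CPM) in the vehicle marrows and 43, 63, 27, 30 and 27 counts (1.24, 1.97, 0.629, 0.668 and 0.728 CPM) in the oxaliplatin marrows, and the excess was mostly in treated libraries 1 and 2. Its log2 fold change of 1.11 ± 0.391 (edgeR adjusted p = 0.0434) lost the call with a replicate block (adjusted p = 0.102), with no filter on low counts (0.0604), with the Y-linked covariate (0.0586), in the test against 1.5-fold (0.217), without treated library 1 or 2 (adjusted p = 0.085 and 0.139), and without vehicle library 1, 2, 4 or 5 (adjusted p between 0.0649 and 0.0996). Gstm5, a mu class gene at the other end of the cluster (chr3:107895821-107898686, plus strand), had 21.5, 20.1, 23.2, 25.0 and 14 CPM with vehicle and 10.9, 10.7, 19.5, 13.1 and 7.14 CPM with oxaliplatin. Vehicle library 5 and treated library 3 made the groups overlap. The log2 fold change of -0.76 ± 0.234 (edgeR adjusted p = 0.0243) lost the call when vehicle library 1, 3 or 4 or treated library 1, 2 or 5 was left out (adjusted p 0.05 to 0.0585), with library size alone (0.0598) and in the test against 1.5-fold (0.406). Exons of Gstm5 overlap 178 bases of 4933431E20Rik on the opposite strand, and the use of strand in counting is not given in the sources used here.

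Gstm1 and Mgst1, the 2 most abundant of the 10 genes per kilobase in marrow, were higher by less than 1.5-fold. Gstm1 had 107, 110, 113, 134 and 112 CPM with vehicle and 149, 147, 218, 173 and 130 CPM with oxaliplatin (log2 fold change 0.51 ± 0.131, edgeR adjusted p = 0.00924). Only treated library 5 lay inside the vehicle range, and the fold passed 1.5 without it (0.621). Mgst1 went from 63.7 ± 6.46 to 89.6 ± 19.6 CPM (log2 fold change 0.49 ± 0.142, edgeR adjusted p = 0.0173), with treated library 3 at 63.8 CPM inside the vehicle range and a fold over 1.5 without it (0.591). Gstp1 (27.4 ± 2.64 and 33.4 ± 5.24 CPM, adjusted p = 0.0826) and Gsta4 (1.94 ± 0.609 and 2.51 ± 0.962 CPM, adjusted p = 0.392) did not pass edgeR's test, with 95% intervals of the log2 fold change of 0.029 to 0.539 and -0.295 to 1.04.

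Gsta2 was nearly absent from marrow and fell below the filter on low counts. It had 1, 4, 6, 6 and 2 counts in the vehicle marrows and 4, 5, 41, 68 and 20 counts in the oxaliplatin marrows. Treated libraries 1 and 2 were at the vehicle level and 3, 4 and 5 above it. With no filter the log2 fold change was 2.49 (edgeR adjusted p = 0.00959), a value that rests on those 3 libraries.

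**Figure D3:**
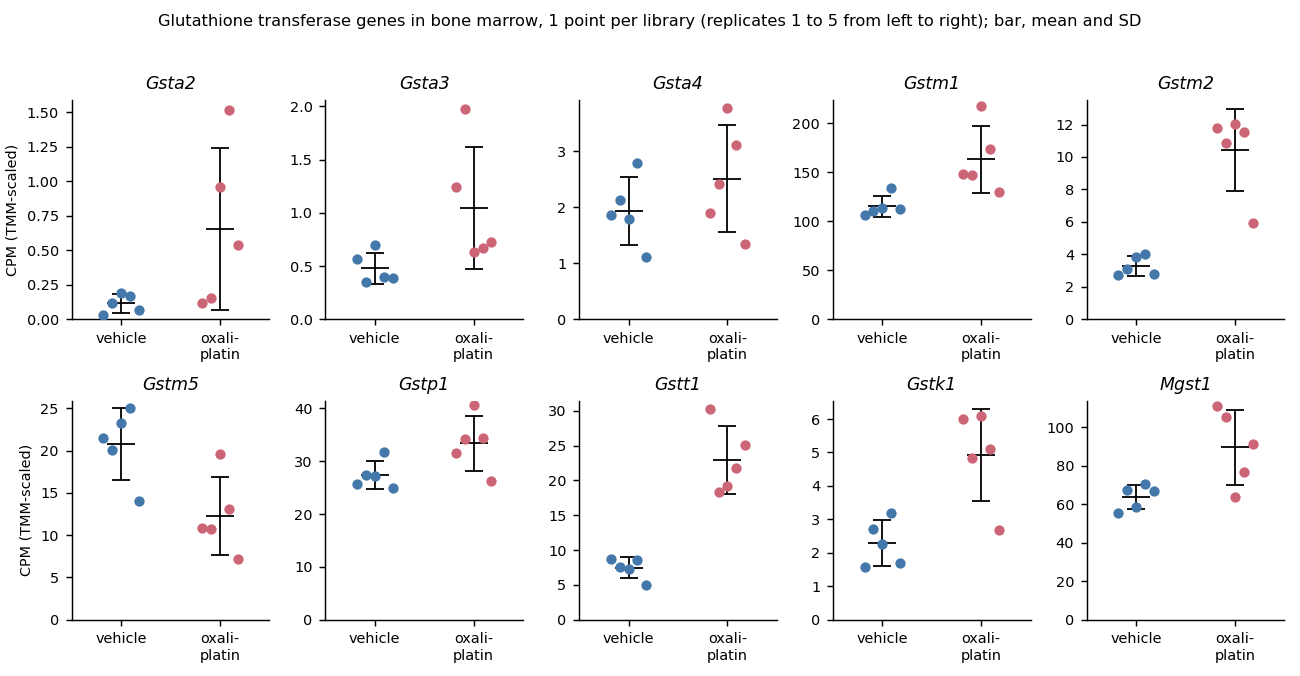
CPM of each gene in the bone marrow libraries (vertical axes start at 0; points, libraries 1 to 5 from left to right; bars, mean and SD). Only Gstm2 and Gstt1 have treated libraries that all lie above the vehicle libraries, and Gsta2 stays at or under 1.51 CPM in every library.

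The cell content of the marrow differed between the groups. Late erythroid markers summed to 30145 to 53346 CPM with vehicle and 3480 to 10115 CPM with oxaliplatin (10 of 10 called lower), early erythroid markers to 1800 to 2477 and 498 to 1192 CPM (6 of 7 lower) and B cell markers to 236 to 425 and 55.6 to 75.8 CPM (5 of 6 lower). Adipocyte markers summed to 82.8 to 149 CPM with vehicle and to 2508, 1135, 2588, 2770 and 540 CPM in treated libraries 1 to 5 (10 of 10 called higher), and Adipoq, the adipocyte hormone, went from 14.5 to 34.5 CPM to 74.8 to 243 CPM. Macrophage markers summed to 964 to 1377 CPM and 1179 to 2665 CPM (4 of 7 called higher), megakaryocyte markers to 963 to 1496 and 1804 to 2763 CPM (4 of 4 higher) and endothelial markers to 231 to 303 and 320 to 629 CPM (3 of 5 higher), while the sums of stroma and bone markers overlapped (1497 to 1923 and 1617 to 2691 CPM, 2 of 7 higher). The mast cell genes Cma1, Tpsb2 and Mcpt4 were called higher, from at most 2 counts per vehicle library to between 20 and 316 counts per treated library, while the sums of the 5 mast cell markers overlapped (98.5 to 121 and 77.3 to 128 CPM). Late neutrophil markers had no member called, with 17590 to 21658 CPM for vehicle and 6824 to 26047 CPM for treated libraries. Treated library 5, lowest of its group in adipocyte markers, was also lowest in Gstm1, Gstm2, Gstm5, Gstp1, Gstk1 and Gsta4. The treated libraries 3 and 4, with the fewest late neutrophil reads, had the 2 highest values of Gstm1, Gstm5, Gstp1, Gsta2 and Gsta4. They also had the 2 lowest values of Mgst1 and Gsta3. Treated library 5 was not lowest in Gstt1 (25.1 CPM, next to the highest), Mgst1 (91.2 CPM, above libraries 3 and 4), Gsta2 or Gsta3. It was also the highest of its group in late neutrophil markers (26047 CPM). With the hemoglobin genes taken out before scaling, the count of called members was again 5, and the part of the other cell types in these values was not tested.

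The test of the difference between the tissues addressed whether oxaliplatin moved a gene by unequal amounts in kidney and marrow. The labels do not say whether kidney and marrow libraries of the same number came from 1 mouse, and the fit took all 20 as separate. The test passed at an adjusted p under 0.05 for 5 of the 10 genes, beside 30.1% of 24321 genes. The kidney minus marrow difference in log2 fold change was -1.63 ± 0.190 for Gstt1 (edgeR adjusted p = 1.04e-06), -1.37 ± 0.219 for Gstm2 (5.68e-05), -1.12 ± 0.257 for Gstk1 (0.00198) and -0.55 ± 0.175 for Gstm1 (0.0203), all larger in marrow. These 4 passed under the other scalings, the replicate block and the Y-linked covariate, and with any 1 of the 20 libraries left out. Gsta4 differed the other way, by 0.92 ± 0.346 (edgeR adjusted p = 0.0487), but this call was lost with a replicate block (adjusted p = 0.054), with the Y-linked covariate (0.0791) and when any of 15 of the 20 single libraries was left out. For Gsta2 (-0.90 ± 0.695, adjusted p = 0.355) and Gsta3 (-0.49 ± 0.318, adjusted p = 0.263) edgeR found no difference between the tissues that passed, and the 95% interval for Gsta2, is wide at -2.35 to 0.545. The difference for Mgst1 was 0.03 ± 0.194 (95% interval -0.376 to 0.428, adjusted p = 0.952). Gstm5 (0.63, adjusted p = 0.0784) and Gstp1 (-0.44, adjusted p = 0.0778) did not pass.

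**Figure D4:**
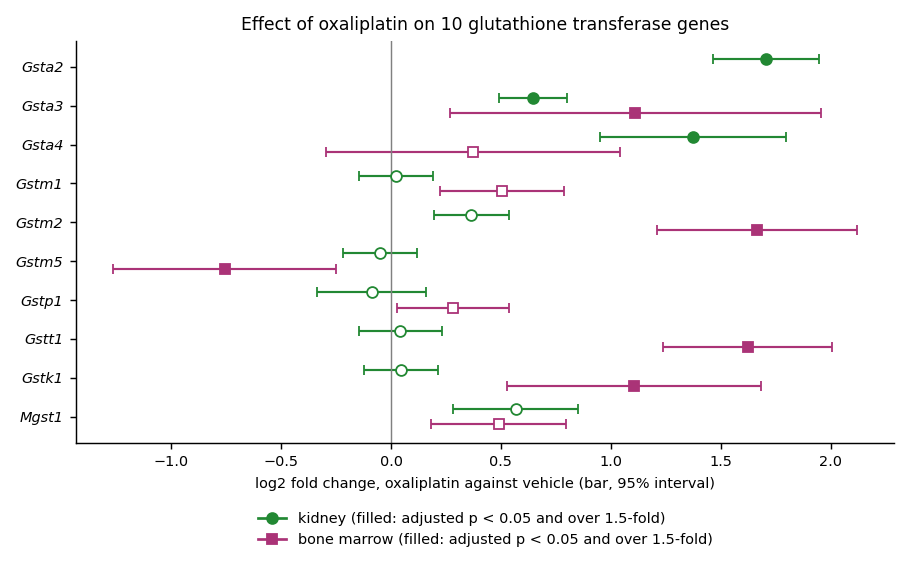
Log2 fold change of oxaliplatin against vehicle for each gene in kidney (circles) and bone marrow (squares), with 95% intervals and filled symbols for called genes. In kidney the filled symbols are Gsta2, Gsta3 and Gsta4, in marrow Gsta3, Gstm2, Gstt1 and Gstk1 (higher) and Gstm5 (lower), and Gsta2 has no marrow value because it was below the filter.

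The makeup of the 10 genes shifted with these changes. In kidney, the sum over the 10 genes was 790 ± 34.8 CPM per kilobase with vehicle and 975 ± 89.3 with oxaliplatin, and the share of Gstm1 was 45.0% ± 1.24 and 37.0% ± 1.99 while its own level was nearly the same in both groups. Gsta2 went from the fifth place per kilobase to the second, at 176 ± 18.6 CPM per kilobase. In marrow the sum was 131 ± 10.2 CPM per kilobase with vehicle and 190 ± 28.0 with oxaliplatin, Gstm1 held 50.8% ± 1.40 and 51.5% ± 5.31, Gstt1 3.16% ± 0.609 and 7.13% ± 1.89, and Gstm5 10.5% ± 1.74 and 4.39% ± 1.14 (SD, n = 5). The sums leave out the other transferase genes, of which 3 were called higher and 2 lower in marrow. Among these, Mgst3 had 89.3 ± 10.4 CPM per kilobase in vehicle marrow, above Gstm1 there, and 32.6 ± 13.6 with oxaliplatin. The sum over the 10 genes therefore does not stand for all transferase genes. The shares and sums are descriptions and were not tested.

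Other transferase genes also changed in both tissues, and the shares of all genes called (11.5% in kidney and 23.3% in marrow) stand as background for these and the following lists. Of 18 further genes present in the tables, 16 were tested in kidney, with 3 called higher and 0 lower, as with DESeq2 (4 lower at an unadjusted p under 0.05; median log2 fold change 0.083), and 15 in marrow, with 3 higher and 2 lower (median 0.175). An adjusted p under 0.05 was reached in kidney by 8 of the 16, beside 29.4% of all genes. Groups did not overlap for 4 higher and 3 lower, beside 9.69% and 11.0% of all genes. The 3 lower were Gstz1 (-0.50 ± 0.0793, edgeR adjusted p = 1.98e-04), Gstt2 (-0.37 ± 0.0873, 0.00387) and Gstm4 (-0.30 ± 0.0943, 0.0227), each by less than 1.5-fold. In kidney the called genes were Gsta1 (1.31 ± 0.399 to 4.54 ± 0.716 CPM, log2 fold change 1.79 ± 0.207, edgeR adjusted p = 1.3e-05), Gstp3 (1.28 ± 0.461, adjusted p = 0.0449) and Ptges, a prostaglandin E synthase (0.70 ± 0.0862, adjusted p = 2.1e-05). Gstp3 was near the floor, with 16, 13, 4, 5 and 6 counts with vehicle and 52, 18, 13, 15 and 26 with oxaliplatin. Its groups overlapped. As 90.5% of the exon windows of Gsta1 occur in other genes, its rise cannot be told apart from that of Gsta2. In marrow Mgst3 had 120, 114, 127, 124 and 90.3 CPM with vehicle and 38.0, 36.5, 62.3, 43.4 and 19.5 CPM with oxaliplatin, with no overlap and a log2 fold change of -1.52 ± 0.236 (edgeR adjusted p = 3.36e-04), while Gstz1, an enzyme of tyrosine breakdown, was higher (0.88 ± 0.153, adjusted p = 6.29e-04).

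Among 11 genes of glutathione turnover, which hold the enzymes that make it and also Chac1, Chac2 and Ggct, which act in its breakdown, the kidney calls were all lower and the marrow calls went both ways. In kidney 0 of 10 tested were called higher by edgeR or DESeq2 (1 at an unadjusted p under 0.05) and 4 lower (median log2 fold change -0.34), namely Ggct (-0.96 ± 0.191, edgeR adjusted p = 0.00341), Gclm, the modifier subunit of glutamate cysteine ligase (335 ± 23.1 to 198 ± 34.6 CPM, -0.76 ± 0.103, adjusted p = 6.8e-05), Gss, glutathione synthetase (-0.72 ± 0.119, adjusted p = 4.74e-04), and Cbs (-0.65 ± 0.120, adjusted p = 0.00107). The 1 higher gene was Slc3a2, which also passed the adjusted p and did not overlap, but rose by less than 1.5-fold (214 ± 9.49 to 308 ± 15.7 CPM, 0.52 ± 0.0631, edgeR adjusted p = 1.87e-05). In marrow 2 of 11 were higher and 4 lower (median -0.074), with Chac2 at -1.81 ± 0.165 (edgeR adjusted p = 4e-06), Gclc, the catalytic subunit of the ligase, at -1.60 ± 0.158 (8e-06) and Cth, which makes cysteine, at 1.69 ± 0.565 (0.0345). Cth was at a low level (0.167 ± 0.169 and 0.552 ± 0.230 CPM, groups overlapping), whereas Oplah, the other gene called higher and named here after its values were seen, had 4.69 ± 1.02 and 12.1 ± 2.41 CPM without overlap (1.37 ± 0.188, edgeR adjusted p = 1.02e-04). Of the peroxidases and reductases that use or restore glutathione or thioredoxin, 0 of 18 were called in kidney by edgeR or DESeq2 (4 were higher and 6 lower at an unadjusted p under 0.05). An edgeR adjusted p under 0.05 was still reached in kidney by 7 of the 18, beside 29.4% of all genes, each by less than 1.5-fold. In marrow 4 of 17 were called higher and 3 lower. The largest marrow changes of that list were Gpx7 (1.83 ± 0.319, edgeR adjusted p = 6.55e-04), Txnrd2, the mitochondrial thioredoxin reductase (-1.80 ± 0.178, 8e-06), and Gpx8 (1.44 ± 0.201, 1.15e-04).

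For the later steps of conjugate handling, the calls lay mostly on opposite sides in the 2 tissues. Of the mercapturate genes, 5 of 11 were called lower and 1 higher in kidney (median log2 fold change -0.557) and 6 of 10 higher in marrow (median 0.676), where 0 were called lower by edgeR or DESeq2 or had a lower level at an unadjusted p under 0.05. The interaction passed for 7 of the 13, beside 30.1% of all genes, and all 7 had the larger log2 fold change in marrow, beside 17.0% of all genes, among them Acy3 (-2.89 ± 0.370, edgeR adjusted p = 4.67e-06). The kidney falls were led by Acy3, an aminoacylase for mercapturates (2661 ± 326 to 918 ± 381 CPM, -1.54 ± 0.286, edgeR adjusted p = 0.00386), Cndp2, a dipeptidase that splits cysteinylglycine (-1.47 ± 0.222, 9.55e-04), and Nat8, the N-acetyltransferase that completes mercapturates (287 ± 41.9 to 132 ± 13.2 CPM, -1.12 ± 0.0966, 7.23e-07). These 3 are enzymes of the proximal tubule, of whose 10 markers 4 were called lower in the same libraries, and the part of that shift was not tested. In marrow the leading genes were Ggt1, which starts conjugate breakdown at the cell surface (1.42 ± 0.368, edgeR adjusted p = 0.00938), Acy3 (1.29 ± 0.250, 0.00141) and Ggt7 (0.80 ± 0.277, 0.0407), at 7.57 CPM or less in treated marrow.

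Among the export pumps for conjugates, 2 of 9 were called higher in kidney and 2 of 8 lower in marrow. The kidney genes were Abcc3 (3.46 ± 0.509 to 12.3 ± 6.92 CPM, log2 fold change 1.83 ± 0.364, edgeR adjusted p = 0.00446) and Abcc4 (73.6 ± 6.85 to 145 ± 12.1 CPM, 0.98 ± 0.077, 1.97e-07), and neither overlapped between groups. In marrow they were Abcc3 again, now lower (-1.46 ± 0.149, edgeR adjusted p = 1e-05; interaction 3.22 ± 0.364, 8.34e-07), and Abcg2 (-0.88 ± 0.156, 7.8e-04). Of 15 regulators tested in kidney, edgeR called Pparg alone (1.00 ± 0.249, adjusted p = 0.00608) while DESeq2 called 2 higher. An edgeR adjusted p under 0.05 was reached by 5 of the 15, beside 29.4% of all genes. Among these 5 was Nfe2l2, which encodes NRF2, higher without overlap but by less than 1.5-fold (79.0 ± 2.21 to 95.9 ± 11.7 CPM, 0.28 ± 0.0759, adjusted p = 0.0103). Its inhibitor Keap1 did not pass (-0.03 ± 0.0915, edgeR adjusted p = 0.827). Of 12 regulators tested in marrow, Maff (1.11 ± 0.195, 7.09e-04) and Pparg were higher and Bach2 (-2.92 ± 0.166, 1.21e-07) and Mafk (-1.09 ± 0.0956, 3.09e-06) lower. Bach2 is also a gene of B cells, whose markers were lower in the same libraries.

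**Figure D5:**
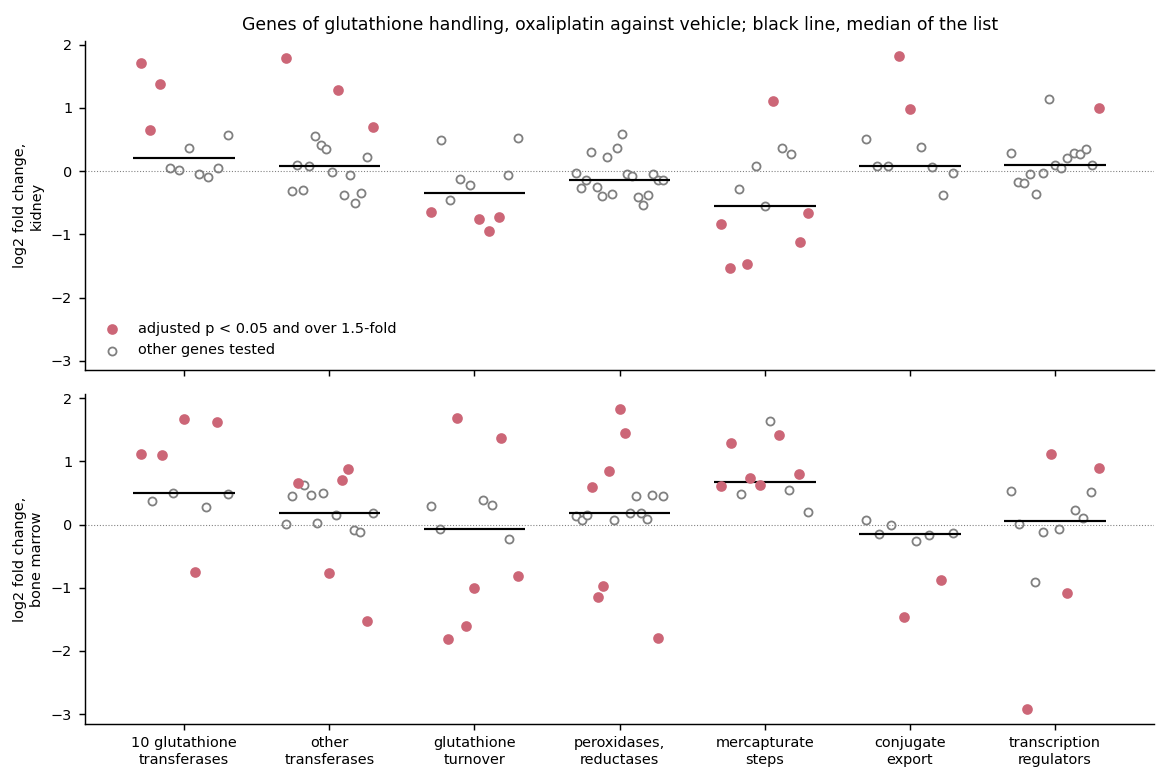
Log2 fold change of each tested gene in the 10 transferases and 6 related lists, in kidney (top) and bone marrow (bottom), with filled points for called genes and a line at each list's median. Mercapturate genes have a median of -0.557 in kidney and 0.676 in marrow.

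The genes most like each member over the 20 libraries were found by the root mean square (RMS) difference in log2 CPM after centring each gene, a measure dominated by the tissue difference. Gstp1 had the closest neighbours, Polr2i (RMS difference 0.096) and Atp5e (0.114), followed by Gstm1 with Esd (0.107) and Ndufa5 (0.124). Gstm5 was nearest to 4933431E20Rik (0.225), the gene its exons overlap, and to Nqo1 (0.241), and Gstm2 to Parva (0.211) and Bicc1 (0.213). Gstt1 was nearest to Bcar1 (0.271) and Dcbld1 (0.281), Gstk1 to L3hypdh (0.246) and Igfbp7 (0.254), and Mgst1 to Numbl (0.22) and Cotl1 (0.221). The alpha genes had more distant neighbours, with Gsta3 nearest to Gpx3 (0.411) and Acot4 (0.424), Gsta4 to Nhs (0.384) and Gm45847 (0.403), and Gsta2 to Kcnk1 (0.805) and Nphs1 (0.828).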

How the data were processed

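The values were raw counts per gene, which the authors deposited without normalization, 1 table per tissue; per the paper, reads were aligned with STAR to the Ensembl mouse genome and unique, unambiguous reads were counted in Partek Flow. The labels describe ribosomal RNA removal with random hexamers, the paper a SMARTer kit, which leaves 2 accounts of the chemistry, and the submitters' processing notes also list featureCounts and Salmon. Each table had 55774 lines; 1 line with a missing value and 287 repeats with identical counts were left out. No 2 libraries of a group agreed within counting noise (chi-square per degree of freedom at least 7.51).

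Groups came from the labels. Genes passed filterByExpr (minimum count 10), were scaled by TMM and tested with edgeR 4.0.16 (R 4.3.3, limma 3.58.1, robust quasi-likelihood, two-sided, Benjamini-Hochberg), in each tissue with treatment alone (19293 and 22363 genes) and over 20 libraries with tissue, treatment and interaction (24321 genes). CPM per kilobase used TMM over 20 libraries and exon lengths of GENCODE M21 (GRCm38), known for 55227 of 55486 genes. The 10 members and all lists were chosen with earlier results of these data known. Named were all members, called genes with the largest changes in related lists (up to 4 or 3 per tissue), and 2 nearest genes per member. Alternatives were DESeq2 1.42.0, other scalings and filters, a replicate block, a Y-linked covariate, a test against 1.5-fold, hemoglobin left out, and each library left out. The steps were tested on simulated data. Figures used Python 3.11.15 and matplotlib 3.10.9.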

Additional observations from a re-analysis of the deposited data

Results flagged for a closer look

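In vehicle marrow, library 4 stood apart for Gstm1 at 133.7 CPM, with the next library at 113.4 CPM and the gap taking up 0.751 of the group's range. In treated marrow, library 5 stood apart for Gstm2 at 5.96 CPM, with the next library at 10.9 CPM and a gap of 0.814 of the range. Both exceed Dixon's limit of 0.71 for 5 samples. These were 2 of 40 groups examined, and chance alone passes about 1 in 20.

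The response to oxaliplatin differed between kidney and marrow for 5 genes by the interaction test in edgeR. Among them, Gsta4 (adjusted p = 0.0487) kept its call in 7 alternatives and lost it in 17. The kidney minus marrow difference in log2 fold change was 0.919 for Gsta4, -0.548 for Gstm1, -1.365 for Gstm2, -1.632 for Gstt1 and -1.123 for Gstk1. In marrow, the groups of Gsta4, Gstm1 and Gstk1 overlapped, and in kidney those of Gstm1, Gstt1 and Gstk1 did.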

How the results depend on the processing

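The direction of every called member in kidney and marrow was the same under all alternatives and with each library left out. In the test against 1.5-fold, the genes called fell from 2216 to 454 in kidney and from 5221 to 2730 in marrow, and the marrow members called from 5 to 2 (Gstm2 and Gstt1). With library size alone, the share of higher genes among those called went from 66.8% to 82.7% in kidney and from 49.6% to 63.4% in marrow, as the median of all genes moved to 0.158 and 0.108 on the log2 scale (tissue comparison, -0.12 to -0.541), and kidney Mgst1 and marrow Gstm1 and Mgst1 became called while marrow Gstm5 lost its call (-0.6, adjusted p = 0.0598). With 1 library left out, kidney calls ranged from 1761 to 2424 genes and 3 to 4 members, marrow calls from 4725 to 5727 genes and 3 to 6 members (3 without vehicle 1 or 4 or treated 1 or 2), the interaction from 6495 to 8028 genes and 4 to 6 members, and the tissue comparison from 17672 to 18146 genes with 9 members throughout. The sign of near-zero kidney values turned for Gstm5 and Gstp1 with library size alone (0.082 and 0.042), the Y-linked covariate (0.002 and 0.019) and without treated library 5 (0.02 and 0.016), for Gstm1 without vehicle library 2 (-0.006), and for Gstt1 (-0.028) and Gstk1 (-0.002) without treated library 1; with 1 library left out they ranged from -0.084 to 0.02 (Gstm5), -0.159 to 0.016 (Gstp1), -0.006 to 0.092 (Gstm1), -0.028 to 0.116 (Gstt1) and -0.002 to 0.104 (Gstk1). The interaction of Mgst1 (-0.127 to 0.094) turned without kidney vehicle 3 (-0.001), kidney treated 1 (-0.127), marrow vehicle 4 (-0.004) or marrow treated 3, 4 or 5 (-0.055, -0.036 and -0.012). The causes were not tested.

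Same-numbered vehicle and oxaliplatin libraries deviated with r of -0.154 to 0.075 in kidney and -0.118 to 0.228 in marrow. Across the tissues, r was -0.05 to 0.02 (vehicle) and -0.049 to 0.158 (oxaliplatin, where numbers 3 and 5 matched best with their own). These values cannot show whether the replicate numbers pair the samples, because paired libraries need not deviate together. With the replicate block, 2017 genes and 3 members were called in kidney, 4968 and 4 in marrow (without Gsta3), 7008 and 5 in the interaction (Gsta4 lost, Gstm5 gained, adjusted p = 0.0441) and 17649 and 9 between tissues. Genes under the filter in marrow, such as Gsta2, are limited by depth.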
